A study of Mus musculus with 9 samples.

Results

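The genes described here are 34 members of mitochondrial and peroxisomal fatty acid oxidation and of the programme run by the nuclear receptor PPAR alpha. They were chosen by name from what these genes are known to do, with earlier results of these data known. All 34 were found among the 21989 genes of the deposited table. They fall into 8 roles: PPAR alpha and its coactivator, the carnitine shuttle, the acyl-CoA dehydrogenases, the later steps of beta oxidation, the enzymes for unsaturated acids, electron transfer, the handling of fatty acids outside the cycle, and fuel choice with other PPAR targets. Of the 34, 33 reached 1 FPKM (fragments per unit of gene length, relative to all fragments of a library) in at least 3 libraries and were tested. The exception was Angptl4.

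RNA was sequenced from mouse aortic arch in 9 libraries, 3 per group. Control mice were C57BL/6J on standard diet. Model mice were ApoE-/-, lacking apolipoprotein E, a carrier of lipoprotein remnants, and were fed high-fat diet. High-dose mice shared the ApoE-/- genotype and the high-fat diet and also received ZCL, named in the labels by these letters alone, at 5.12 g/kg/d by gavage for 15 weeks. Genotype and diet therefore differ together between model and control and cannot be told apart, and the labels state no vehicle gavage, age or sex. Whether the 3 libraries of a group stem from different animals is also unstated, so every p-value below measures the spread between these libraries, which may be technical. The atorvastatin and lower-dose groups of the study are not analysed here.

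Fatty acids enter mitochondria as carnitine esters, made on the outer membrane by CPT1 and turned back to acyl-CoA inside by CPT2. Each turn of beta oxidation then removes acetyl-CoA through a dehydrogenase, a hydratase, another dehydrogenase and a thiolase, and the electrons pass through the electron transfer flavoprotein to the respiratory chain. PPAR alpha, a receptor activated by fatty acids, raises transcription of many of these enzymes as a partner of RXR. Heart, brown fat, liver and oxidative muscle are rich in the pathway. The aorta itself is mostly smooth muscle and endothelium, with brown and white fat around it and heart muscle at its root.

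The libraries held unequal amounts of these neighbouring tissues. Smooth muscle and endothelial markers were present in all 9: Acta2, smooth muscle actin, ranged from 177 to 1857 FPKM, and Pecam1, an endothelial adhesion molecule, from 118 to 198 FPKM. Myh6, a myosin heavy chain of heart muscle, stood at 2729, 807 and 1.85 FPKM in controls 1 to 3, 6.34, 2.89 and 3.80 in models 1 to 3 and 2.18, 634 and 1554 in high-dose libraries 1 to 3. Controls 1 and 2 and high-dose 2 and 3, 4 libraries in all, thus carried over 100 FPKM of Myh6, and no model library did. Ucp1, the uncoupling protein of brown fat, stood at 522, 757 and 7979 FPKM in controls 1 to 3, 308, 1146 and 927 in models 1 to 3 and 2281, 341 and 698 in high-dose libraries 1 to 3. Control 3 was richest in Ucp1, followed by high-dose 1, with overlap between all groups. Adipoq, the adiponectin gene of fat cells, stood at 96.9, 207 and 593 FPKM in controls 1 to 3, 128, 477 and 585 in models 1 to 3 and 459, 54.6 and 183 in high-dose libraries 1 to 3. The skeletal muscle actin Acta1 stood at 3707 FPKM in high-dose 2 and lay between 3.41 and 135 FPKM in the others. Alb, the liver's albumin, lay between 0.268 and 287 FPKM. Sequencing depth relative to model 1, estimated from the steps between low FPKM values, lay between 56.3% in control 2 and 100% in model 1.

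Over whole lists, the 15 cardiac markers summed to between 48.3 and 33169.8 FPKM over the control libraries, 59.3 and 123 over the model libraries, and 38.0 and 23137 over the high-dose libraries. The 10 brown fat markers summed to between 771 and 11765 FPKM in control, 735 and 2506 in model, and 841 and 3835 in high dose. The 11 white fat markers lay between 616 and 3073, 518 and 2389, and 399 and 3003 FPKM in the same order, and the 14 skeletal markers between 156 and 366, 18.9 and 608, and 128 and 16405 FPKM. The 11 liver markers summed to between 185 and 864 FPKM in control, 45.7 and 359.9 in model, and 69.8 and 824 in high dose. In the same order the 10 smooth muscle markers lay between 1766 and 3488, 1890.2 and 4601, and 506 and 4296 FPKM, and the 8 endothelial markers between 491 and 524, 485 and 557, and 259 and 567 FPKM. The 6 airway markers lay between 24.1 and 8506, 11.1 and 54.5, and 17.0 and 22387 FPKM. The 7 markers of sympathetic neurons and chromaffin cells separated model from both other groups, at 26.3 to 427 FPKM in control, 0.911 to 3.07 in model and 6.00 to 2128 in high dose, and all 7 averaged under 1 FPKM in model. The 10 macrophage markers also separated model from control, at 175 to 655 FPKM in control, 1234 to 6220 in model and 502 to 2394 in high dose, led by Lyz2, the macrophage lysozyme, at 213, 579 and 140.5 FPKM in controls 1 to 3, 4275, 2997 and 958 in models 1 to 3 and 422, 479 and 1793 in high-dose libraries 1 to 3. The most abundant genes of the remaining lists reached 6861 FPKM in control 1 (Myl7, cardiac), 4221 in high-dose 2 (Tnnc2, skeletal), 1485 in high-dose 1 (Cfd, fat), 770.0 in high-dose 1 (Cyp2e1, liver), 20438 in high-dose 2 (Scgb1a1, airway) and 839 in high-dose 1 (Dbh, sympathetic). No marker was listed at 0 throughout a group. As the tissue was sequenced in bulk, fewer cells of a type and less RNA per cell cannot be told apart. The share of these tissues in the differences given below was not tested beyond the values printed beside them.

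The 34 members varied widely between libraries of 1 group. Their summed level was 4957, 2724 and 11840.4 in controls 1 to 3, 2219, 6636 and 8072 in models 1 to 3 and 4546, 2012 and 2637 in high-dose libraries 1 to 3, in FPKM. Within control and within model it varied by more than the group means differed, which were 6507 ± 4752 (SD, n = 3) in control, 5642 ± 3051 in model and 3065 ± 1320 in high dose. Control 3 held the highest value of 26 members, model 3 of 3, control 1 of 3 and model 2 of 2. The lowest value was in high-dose 2 for 17 members, in model 1 for 9, in high-dose 3 for 6 and in control 2 and high-dose 1 for 1 each.

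For 17 of the 34 members (50.0%) the same 3 libraries ranked highest, control 3, model 2 and model 3, as they did for 710 of 12891 tested genes (5.51%). These 17 were Ppara, Cpt2, Slc25a20, Crat, Acadl, Acadm, Acads, Hadha, Hadhb, Hadh, Echs1, Acaa2, Eci1, Decr1, Etfa, Etfb and Angptl4. The 3 libraries were also highest for 4 of 10 brown fat markers and 5 of 11 white fat markers, and for none of the 15 cardiac, 14 skeletal or 10 smooth muscle markers. This ordering was noticed in the data and is given without a test.

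**Figure D1:**
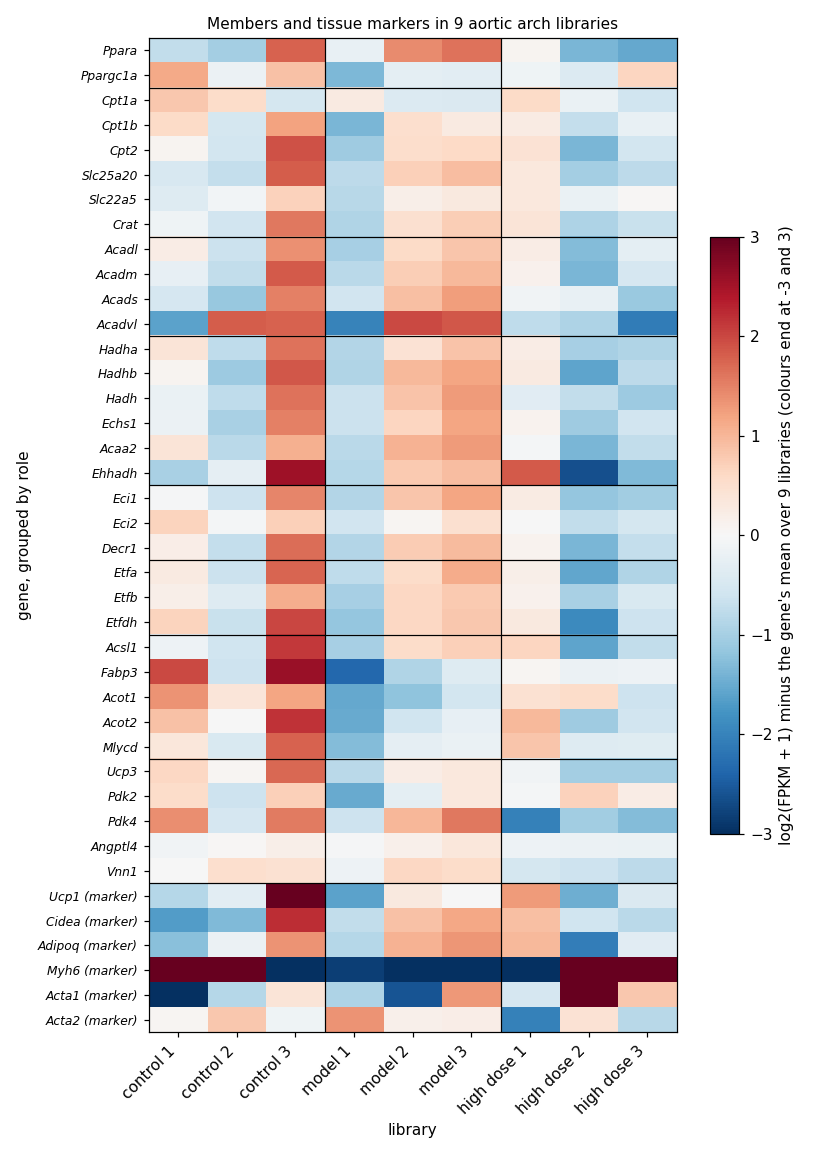
Rows are the 34 genes, grouped by role and split by lines, with 6 tissue markers at the foot, and columns are the 9 libraries. Colour gives log2(FPKM + 1) minus the gene's mean over the 9 libraries, with red above and blue below, and the red columns of control 3, model 2 and model 3 cross most roles, where control 3 was highest for 26 members.

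The 2 regulators of the group lay at low levels. Ppara, the receptor itself, stood at 4.29, 3.35 and 29.4 FPKM in controls 1 to 3, 6.60, 22.6 and 26.4 in models 1 to 3 and 8.41, 2.45 and 2.08 in high-dose libraries 1 to 3. It was high in control 3, model 2 and model 3 and low elsewhere, so that all groups overlapped. The differences, on the log2(FPKM + 1) scale with the standard error of the limma fit, were 0.94 ± 0.818 for model against control (adjusted p = 0.858), -1.87 ± 0.818 for high dose against model (adjusted p = 0.371) and -0.94 ± 0.818 for high dose against control (adjusted p = 0.894). None passed the threshold of 0.05. With the mean of the cardiac markers as a covariate the model against control difference of Ppara was -0.24, against 0.94 over all libraries. Without the 4 libraries rich in Myh6 it was -0.84, with control 3 as the only control left.

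Ppargc1a, the coactivator PGC-1 alpha that links these genes to mitochondrial growth, stood at 8.20, 2.71 and 6.72 FPKM in controls 1 to 3, 0.657, 2.46 and 2.41 in models 1 to 3 and 2.86, 2.17 and 5.61 in high-dose libraries 1 to 3. Every model library lay below every control library, while the high-dose libraries overlapped both groups. Its mean was 5.88 ± 2.84 FPKM (SD, n = 3) in control, 1.84 ± 1.03 in model and 3.55 ± 1.82 in high dose. The difference between model and control was -1.25 ± 0.456 (adjusted p = 0.713), and those of high dose were 0.68 ± 0.456 against model (adjusted p = 0.502) and -0.57 ± 0.456 against control (adjusted p = 0.890). Thus receptor and coactivator did not keep one order across the libraries: control 1 was the highest library for Ppargc1a and held 4.29 FPKM of Ppara.

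In the carnitine shuttle, the 2 forms of the outer-membrane transferase behaved unlike each other. Cpt1a, the form of liver and most other tissues, stood at 47.2, 39.7 and 18.0 FPKM in controls 1 to 3, 32.2, 19.7 and 19.3 in models 1 to 3 and 39.8, 23.1 and 17.2 in high-dose libraries 1 to 3. Cpt1b, the form of muscle and brown fat, stood at 307, 143 and 476 FPKM in controls 1 to 3, 79.5, 294 and 249 in models 1 to 3 and 243, 124 and 177 in high-dose libraries 1 to 3. Since FPKM is scaled to gene length, both levels can be set side by side: Cpt1b exceeded Cpt1a in all 9 libraries. The Cpt1b to Cpt1a ratio was 6.50, 3.61 and 26.4 in controls 1 to 3, 2.47, 14.9 and 12.9 in models 1 to 3 and 6.11, 5.36 and 10.3 in high-dose libraries 1 to 3. It was largest in control 3, and the groups overlapped. Of the 3372 exonic bases of Cpt1b, 2744 are shared with Gm44502, annotated on the same strand, so reads may have been divided between them.

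None of the differences of Cpt1a or Cpt1b passed. For Cpt1a they were -0.47 ± 0.426 for model against control, 0.12 ± 0.426 for high dose against model and -0.35 ± 0.426 for high dose against control, with adjusted p of 0.867, 0.918 and 0.927. For Cpt1b they were -0.61 ± 0.593, -0.04 ± 0.593 and -0.65 ± 0.593 in the same order, with adjusted p of 0.883, 0.979 and 0.895. Their signs varied with the processing, as given in the closing section.

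The other 4 shuttle genes were Cpt2, the inner-membrane transferase; Slc25a20, which exchanges acylcarnitine for carnitine; Slc22a5, the carnitine importer of the cell surface; and Crat, which joins short acyl groups to carnitine. Cpt2 ranged from 28.8 to 292 FPKM over the 9 libraries, Slc25a20 from 74.3 to 544, Slc22a5 from 13.4 to 40.1 and Crat from 45.1 to 262. All 4 were highest in control 3, and their groups overlapped in every comparison. Slc22a5 spanned 2.99-fold between its extremes and Cpt2 10.1-fold.

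The 4 acyl-CoA dehydrogenases open each turn of the cycle on chains of different length. Acadl, for long chains, stood at 285, 155 and 627 FPKM in controls 1 to 3, 121, 361 and 435 in models 1 to 3 and 285, 97.9 and 198 in high-dose libraries 1 to 3. Acadm, for medium chains, stood at 270.2, 194 and 1148 FPKM in controls 1 to 3, 183, 537 and 631 in models 1 to 3 and 354, 125 and 225 in high-dose libraries 1 to 3. Acads, for short chains, ranged from 35.2 to 223 FPKM. All 3 were highest in control 3, and in each the model libraries 2 and 3 lay above model 1 and above every high-dose library.

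Acadvl, for very long chains, ordered the libraries in another way and stood at 2.79, 39.7 and 38.9 FPKM in controls 1 to 3, 1.89, 44.7 and 41.0 in models 1 to 3 and 5.83, 5.08 and 1.72 in high-dose libraries 1 to 3. Control 2, control 3, model 2 and model 3 lay between 38.9 and 44.7 FPKM and the other 5 libraries at 5.83 or below, without following the groups. The gene shares 1151 of its 2686 exonic bases with Dvl2 on the opposite strand, and whether the counting used strand is not given in the sources used here. Dvl2 was listed at 0.146 to 0.975 FPKM and Dlg4, the neighbour on the other side, at up to 0.796 FPKM. Whether the low values of Acadvl come from how overlapping reads were assigned was not tested.

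The later steps of the cycle were measured by 6 genes. Hadha and Hadhb encode the subunits of the trifunctional protein, which carries out the remaining steps on long chains. They ranged from 91.9 to 567 and from 46.4 to 519 FPKM. Hadh (short-chain hydroxyacyl-CoA dehydrogenase), Echs1 (short-chain enoyl-CoA hydratase) and Acaa2 (thiolase) ranged from 87.9 to 584, 68.1 to 409 and 166 to 1051 FPKM. Acaa2 was highest in model 3 and the other 4 in control 3, and groups overlapped for all 5 in every comparison.

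Ehhadh, the bifunctional enzyme of peroxisomes and a classical PPAR alpha target in liver, stood at 21.0, 34.6 and 249.7 FPKM in controls 1 to 3, 22.8, 73.4 and 81.6 in models 1 to 3 and 153, 5.91 and 16.1 in high-dose libraries 1 to 3. Its 2 highest libraries were control 3 and high-dose 1. They also held most Ucp1 and the highest brown fat marker means, 6.785 and 5.29 as log2(FPKM + 1), with model 3 close at 5.15. Single brown fat markers ranked the libraries differently: Cidea stood at 1443 FPKM in model 3 and 1216 in high-dose 1. The part of brown fat in the values of Ehhadh was not tested. Ehhadh spanned 42.2-fold between the highest and lowest library, wider than any member but Fabp3. The 3 auxiliary genes act on unsaturated chains: Eci1 and Eci2, enoyl-CoA isomerases, ranged from 69.7 to 431 and 31.1 to 86.6 FPKM, and Decr1, the dienoyl-CoA reductase, from 41.6 to 350.2. Groups overlapped for all of them.

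Electrons leave the acyl-CoA dehydrogenases through the flavoprotein subunits Etfa and Etfb and the membrane-bound Etfdh. Etfb was at 674, 456 and 1279.6 FPKM in controls 1 to 3, 298, 923 and 1038 in models 1 to 3 and 655, 304 and 437 in high-dose libraries 1 to 3. Etfa ranged from 63.1 to 631 FPKM and Etfdh from 26.9 to 419. The highest library of each was control 3. Of Etfb's 1164 exonic bases, 617 are shared with Gm45233 on the same strand, which may take part of its reads.

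The handling of fatty acids outside the cycle held the lowest model values relative to control. Acot1 and Acot2 are acyl-CoA thioesterases of cytosol and mitochondria, both known PPAR alpha targets, which release free fatty acid from CoA. Acot1 stood at 31.1, 15.3 and 27.9 FPKM in controls 1 to 3, 3.37, 4.51 and 7.60 in models 1 to 3 and 16.4, 17.7 and 7.25 in high-dose libraries 1 to 3. Acot2 stood at 44.2, 23.6 and 109.6 FPKM in controls 1 to 3, 7.66, 15.5 and 19.9 in models 1 to 3 and 47.3, 10.9 and 15.5 in high-dose libraries 1 to 3. For both, every model library lay below every control library, and high-dose values spread from near model to near control.

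The model against control difference was -2.06 ± 0.412 for Acot1 (adjusted p = 0.688) and -1.79 ± 0.667 for Acot2 (adjusted p = 0.715), neither past the threshold. Acot1 had the smallest p of any member in this comparison, 0.000812 before adjustment. With each library weighted by how closely it follows the fit, Acot1 was called at an adjusted p of 0.042 with a difference of -2.13, and Fabp3 at 0.0493 with -2.32. That fit called 684 of all 12895 genes and 2 of the 33 members, so the members' share was near that of genes in general. Weights ran from 0.379 for control 3 to 5.92 for model 2, so model 2 counts most in this result.

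The 2 genes lie side by side on chromosome 12 of GRCm38, Acot2 at chr12:83987861-83993873 and Acot1 at chr12:84009490-84018371, both on the plus strand. Their coding sequences, from GENCODE M21, hold 1257 bases for Acot1 and 1359 for Acot2. Over 1236 aligned bases 1181 are identical (95.6%), with a longest identical run of 273 bases. A stretch of 90 coding bases is shown because it lets a reader see how few letters separate the pair; capitals mark the 5 that differ. It spans bases 1130 to 1219 of the Acot1 coding sequence and 1253 to 1342 of that of Acot2.
Acot1: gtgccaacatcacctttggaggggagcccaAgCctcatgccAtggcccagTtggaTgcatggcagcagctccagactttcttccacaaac
Acot2: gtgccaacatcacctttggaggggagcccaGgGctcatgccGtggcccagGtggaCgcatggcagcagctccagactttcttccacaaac
How the authors' counting divided reads between such stretches is not given in the sources used here, so the split between the 2 genes is uncertain. Their summed level, which the split touches only through the unequal gene lengths, was 75.3, 38.9 and 138 in controls 1 to 3, 11.0, 20.0 and 27.6 in models 1 to 3 and 63.7, 28.6 and 22.8 in high-dose libraries 1 to 3, in FPKM. The model sums, 11.0 to 27.6, all lay below the control sums, 38.9 to 138.

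Fabp3, the fatty acid binding protein of heart and muscle that is also abundant in active brown fat, stood at 38.6, 5.52 and 59.6 FPKM in controls 1 to 3, 0.961, 4.44 and 6.71 in models 1 to 3 and 9.58, 7.92 and 8.04 in high-dose libraries 1 to 3. It spanned 62.0-fold, the widest range of the group. Every high-dose library lay above every model library, with a difference of 1.13 ± 0.798 (adjusted p = 0.527). The 3 high-dose values lay close together, at 8.51 ± 0.922 FPKM (SD, n = 3), while the controls ran from 5.52 to 59.6 FPKM.

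Mlycd, malonyl-CoA decarboxylase, removes the inhibitor of CPT1 and stood at 32.8, 18.6 and 90.1 FPKM in controls 1 to 3, 9.94, 21.3 and 22.5 in models 1 to 3 and 46.8, 19.4 and 19.7 in high-dose libraries 1 to 3. Acsl1, which activates long-chain acids to acyl-CoA, stood at 113, 81.9 and 544 FPKM in controls 1 to 3, 61.6, 184 and 206 in models 1 to 3 and 195, 41.1 and 74.0 in high-dose libraries 1 to 3. Groups overlapped for both in every comparison. The lowest Mlycd value was in model 1 and the lowest Acsl1 value in high-dose 2.

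**Figure D2:**
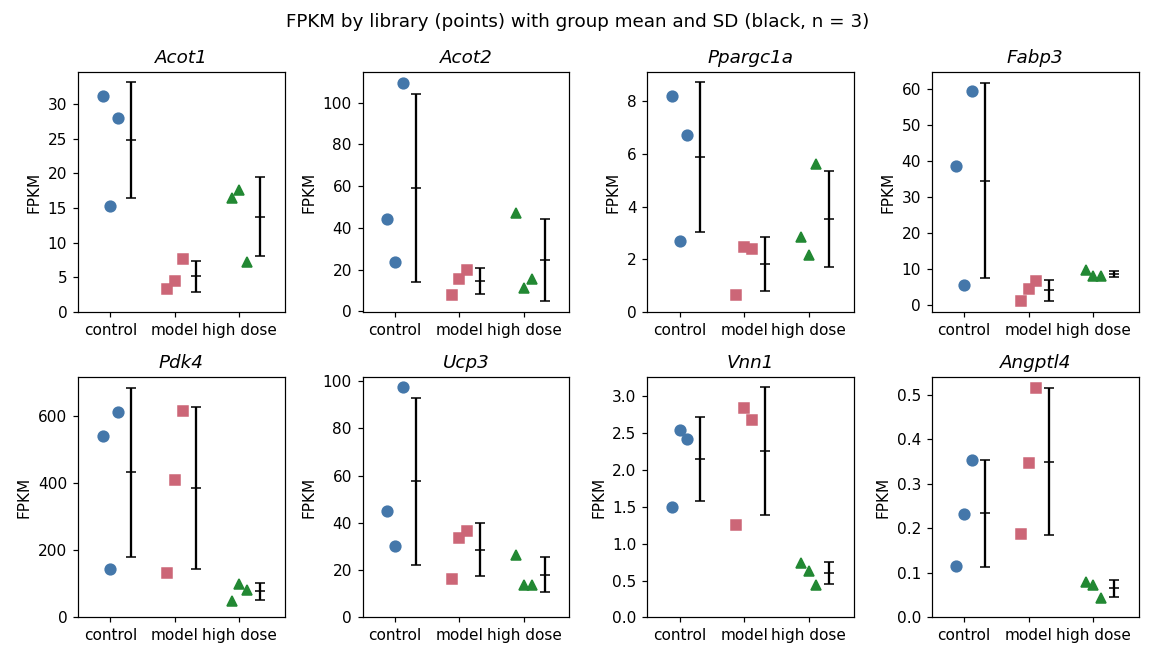
Points show FPKM in each library of control (circles), model (squares) and high dose (triangles) for 8 genes, each on its own axis, with the group mean and SD (n = 3) in black beside them. Model points of Acot1, Acot2 and Ppargc1a lie below all control points, and high-dose points of Pdk4 (49.5 to 100.1 FPKM) lie below all others.

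Among the fuel-choice genes, Pdk4 encodes a kinase that switches off pyruvate dehydrogenase when fat is burnt, and it is a standard PPAR target in muscle and heart. Its level was 543, 144 and 612 FPKM in controls 1 to 3, 134, 410.0 and 615 in models 1 to 3 and 49.5, 100.1 and 82.7 in high-dose libraries 1 to 3. All 3 high-dose libraries lay below all 6 others, and model and control overlapped. Mean levels were 433 ± 252 FPKM (SD, n = 3) in control, 386 ± 241 in model and 77.5 ± 25.7 in high dose.

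The difference of Pdk4 was -2.11 ± 0.694 for high dose against model (adjusted p = 0.298), -2.27 ± 0.694 for high dose against control (adjusted p = 0.832) and -0.17 ± 0.694 for model against control (adjusted p = 0.983). None passed. The high dose against model difference was -2.09 with the cardiac marker mean as a covariate and -2.05 with the brown fat marker mean. Without the 4 libraries rich in Myh6 it was -2.68, with high-dose 1 as the only high-dose library left. Pdk4 stood at 100.1 and 82.7 FPKM in the high-dose libraries rich in Myh6 and at 49.5 FPKM in the one with little. The part of heart muscle or fat in these values was not tested.

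Pdk2, a kinase of the same family, did not share this order and stood at 141, 61.7 and 157 FPKM in controls 1 to 3, 32.8, 77.9 and 119 in models 1 to 3 and 92.3, 155 and 111 in high-dose libraries 1 to 3. The Pdk4 to Pdk2 ratio was 3.85, 2.34 and 3.90 in controls 1 to 3, 4.08, 5.27 and 5.19 in models 1 to 3 and 0.537, 0.644 and 0.746 in high-dose libraries 1 to 3. It was above 2 in every control and model library and below 1 in every high-dose library. Against Acadl, the Pdk4 ratio was 1.91, 0.935 and 0.976 in controls 1 to 3 and 1.11, 1.14 and 1.41 in models 1 to 3. In high-dose libraries 1 to 3 it was 0.174, 1.02 and 0.417, so that high dose overlapped control. The Pdk4 to Pdk2 ratio was chosen after the values of both genes were seen, and both ratios are given without a test.

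The sequence before the Pdk4 start is shown because Pdk4 had the largest difference among the members whose high-dose libraries stood apart. It covers 250 to 51 bases before the RefSeq start on GRCm38.p6, at chr6:5496329-5496528, minus strand, printed in the direction of the gene. Capitals mark a CCAAT box on the reverse strand, read as ATTGG.
Pdk4: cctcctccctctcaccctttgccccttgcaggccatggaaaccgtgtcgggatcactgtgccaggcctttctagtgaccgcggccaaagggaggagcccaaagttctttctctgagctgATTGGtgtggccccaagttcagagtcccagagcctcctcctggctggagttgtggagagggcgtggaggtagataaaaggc
RefSeq windows of 250 bases before to 50 after the start were matched for 28 of the 34 genes. The box CCAAT, searched on both strands, was in the windows of 13 of these 28, Pdk4, Pdk2, Acot1, Acot2, Acsl1, Cpt1a, Eci2, Ehhadh, Etfa, Etfb, Etfdh, Hadh and Mlycd, and in 37.4% of 32851 windows of all genes. AGGNCANAGGNCA, a direct repeat with 1 base between, as PPAR and RXR bind, was in 0.381% of all windows and in no member's. TNAAGGTCA, the element of estrogen-related receptors, was in 1.28% and in no member's. GCGCANGCGC, the NRF1 element, was in 4.60% of all windows and in those of Etfb, Etfdh, Ppara and Slc22a5. CCGGAAG, the ETS element, was in 8.86% and in those of Cpt2, Mlycd and Slc25a20. These counts describe letters in short windows and nothing about binding.

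Ucp3, an inner-membrane carrier of muscle and brown fat that PPAR alpha and fatty acids induce, stood at 45.1, 30.2 and 97.3 FPKM in controls 1 to 3, 16.1, 33.7 and 36.4 in models 1 to 3 and 26.5, 13.6 and 13.7 in high-dose libraries 1 to 3. High-dose libraries all lay below control libraries, with a difference of -1.52 ± 0.485 (adjusted p = 0.832), and overlapped those of the model group. Vnn1, a pantetheinase and PPAR alpha target of liver and gut, stood at 1.49, 2.54 and 2.42 FPKM in controls 1 to 3, 1.25, 2.83 and 2.67 in models 1 to 3 and 0.735, 0.628 and 0.446 in high-dose libraries 1 to 3. High-dose libraries were lowest for Vnn1 too, with differences of -0.99 ± 0.285 against model (adjusted p = 0.264) and -0.96 ± 0.285 against control (adjusted p = 0.832), at levels where the added 1 FPKM understates a change.

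Angptl4, a PPAR-induced inhibitor of lipoprotein lipase, was near 0: its level was 0.114, 0.232 and 0.354 FPKM in controls 1 to 3, 0.187, 0.346 and 0.516 in models 1 to 3 and 0.0805, 0.0725 and 0.0442 in high-dose libraries 1 to 3. The smallest whole fragment numbers that match these values to within 0.02 fragments were 14, 21 and 35 in control, 30, 45 and 59 in model and 10, 8 and 5 in high dose. Exact Poisson intervals (95%) for them, which cover counting error only, ran for example from 44.9 to 76.1 fragments in model 3 and from 1.62 to 11.7 in high-dose 3. High-dose libraries were again the lowest, but the gene was below the filter and was not tested, and no fold is given for it.

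In the comparison of model with control, which sets ApoE loss with high-fat diet against the normal genotype and diet, no member passed limma's adjusted p of 0.05, as no gene did among 12895 (0%). At an unadjusted p under 0.05 there were 821 genes and 4 members. Of the 33, 10 were higher and 23 lower, where 48.7% of all genes were higher. Their median difference was -0.18 against -0.01 over all genes. Without overlap between groups, 3 members were lower (Acot1, Acot2 and Ppargc1a) and none higher. The background for this was 9.06% of all tested genes lower and 6.91% higher, so the members' share was near that of genes in general. The median was 0.33 without control 3, 0.32 without model 1 and 0.38 with library weights. It was -1.40 without the 4 libraries rich in Myh6, where control 3, highest for 26 members, was the only control left. The sign of the median thus rests on single libraries. Without control 2 the members lower without overlap numbered 9, where all genes gave 11.3%.

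High dose against model compares ZCL-treated and untreated mice of the same genotype and diet. No member and no gene was called (0%), with 1729 genes and 4 members at an unadjusted p under 0.05. Of the 33, 25 were lower and 8 higher, where 50.1% of all genes were higher. The median was -0.70 for the members and 0.00 for all genes. Without overlap 2 members were lower, Pdk4 and Vnn1, against 10.9% of all genes, and 1 was higher, Fabp3, against 11.7%. Both counts were below the background share.

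Which libraries were compared set the size of this median. It was 0.054 with the cardiac marker mean as a covariate, 0.035 without the 4 libraries rich in Myh6 (which leaves 1 high-dose and 1 control library, assumed to vary like the rest), -1.22 without model 1 and -0.30 without high-dose 2. Without model 1, 23 of 33 members were lower without overlap, where all genes gave 19.8%, and without high-dose 1 there were 10, where all genes gave 19.8%. Model 1 was the model library with the lowest summed level of the members, and high-dose 1 the high-dose library with the highest.

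High dose against control shares its control libraries with the first comparison and its high-dose libraries with the second. Here too no member or gene was called (0%), and 701 genes and 4 members had an unadjusted p under 0.05. Of the 33, 32 were lower and 1, Pdk2, higher, where 50.2% of all genes were higher. The median was -0.94 for the members and 0.00 for all genes. Control 3 was highest for 26 members, so the signs are not independent of each other. Without overlap 3 were lower (Pdk4, Ucp3 and Vnn1), against 5.02% of all genes, and none higher, against 3.66%. The median was -0.32 without control 3 and -0.57 without high-dose 2, and without control 2 or high-dose 1 the members lower without overlap numbered 15 and 14, where all genes gave 7.30% and 13.4%.

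**Figure D3:**
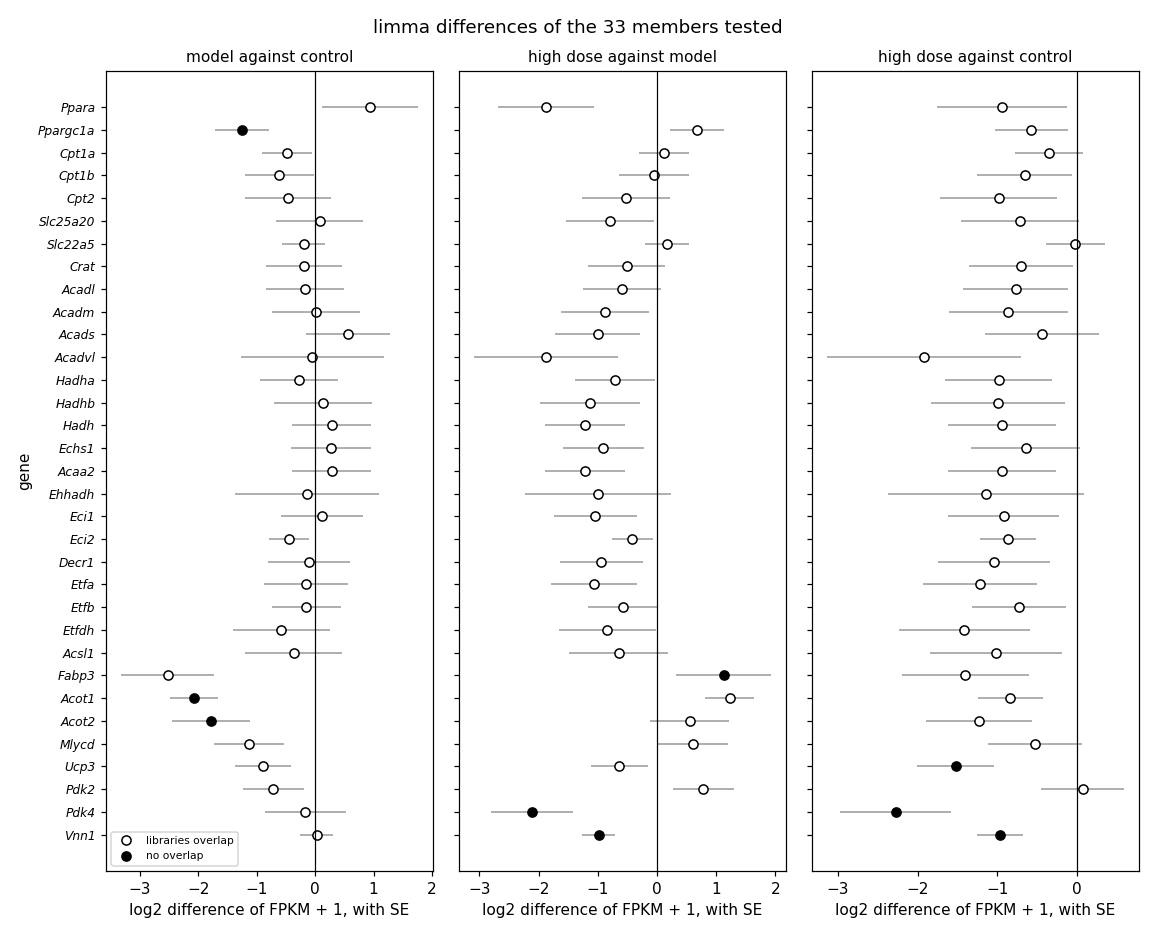
Points give each member's log2 difference of FPKM + 1 from limma in the 3 comparisons, with bars of 1 SE, and filled points mark members whose libraries do not overlap between the groups. Most bars cross or approach 0 in the first panel. In the third 32 of 33 points lie left of 0, where 50.2% of all genes tested were higher.

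**Figure D4:**
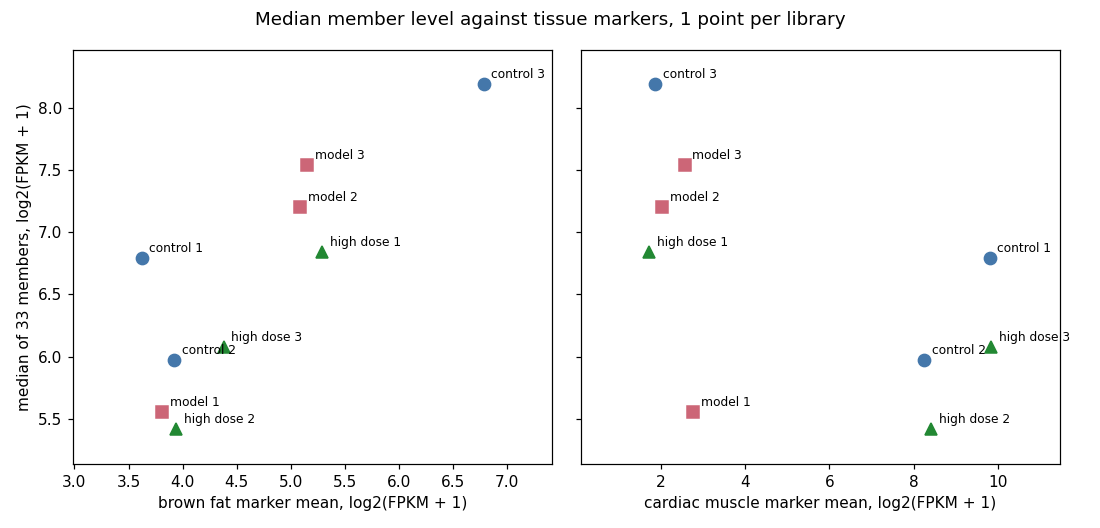
Each point is 1 library, with the median level of the 33 tested members on the y axis and the mean of the brown fat (left) or cardiac (right) markers on the x axis, all as log2(FPKM + 1). Control 3 is highest for both members and brown fat markers. The 4 libraries with cardiac means above 8 have member medians of 5.41 to 6.80. Those of the rest run from 5.55 in model 1 to 8.19 in control 3, so the ranges overlap.

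Many enzymes of the cycle kept a steady proportion to each other across the libraries. Each member was set against the median of the 33 in the same library, and the spread of that log2 ratio over the 9 libraries was taken. In 15 of 33 members (45.5%) the SD was at most 0.35, as in 66 of 12891 genes (0.512%). They were, from the steadiest, Acadl (0.128), Decr1 (0.140), Hadha, Crat, Cpt2, Acadm, Etfb, Etfa, Eci1, Echs1, Slc25a20, Hadhb, Acsl1, Acaa2 and Etfdh (0.347). Acadl itself spanned 6.40-fold between libraries. All but Acsl1 encode the shuttle, the cycle or its electron carriers. Since the members make up the median, and the limit was chosen after the values were seen, this is a description with no test.

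The least steady were Acadvl (SD 1.43), Cpt1a (1.23), Acot1 (1.19), Fabp3 (1.17) and Pdk4 (1.00). The median SD was 0.417 for the members and 1.07 for all genes.

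**Figure D5:**
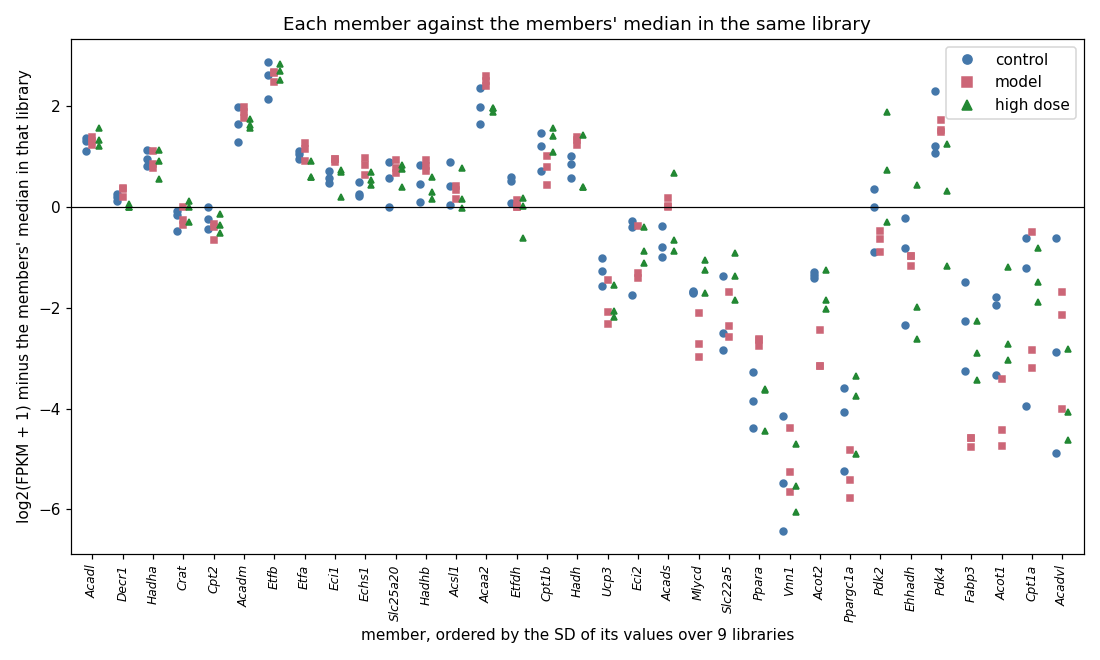
Each column is 1 of the 33 tested members, ordered by the spread of its points, and each point is a library (circles control, squares model, triangles high dose). The y axis is log2(FPKM + 1) minus the median of the members in the same library; the points of Acadl and Decr1 lie within a narrow band (SD 0.128 and 0.140), and those of Fabp3, Acot1 and Pdk4 are spread widely.

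Set against the members' own median, more members separated the groups than without this scaling in model against control and in high dose against model. Acot1 and Acot2 in the former, and Fabp3 and Pdk4 in the latter, had done so without it. In model against control, Ppara, Acads, Hadh, Echs1, Acaa2 and Eci1 lay higher without overlap (0.970% of all genes), and Fabp3, Acot1, Acot2 and Mlycd lower (0.310%). In high dose against model, Cpt1b, Fabp3, Acot1, Acot2, Mlycd and Pdk2 lay higher (3.42%), and Ppara, Acadm, Hadhb, Acaa2, Eci1, Decr1, Etfa and Pdk4 lower (0.341%). Fabp3, Acot1, Acot2 and Mlycd, 4 of the 5 genes that handle fatty acids outside the cycle, were on both lists, lower in model than in control and higher in high dose than in model. The remaining one, Acsl1, was on neither, with differences of -0.15 and 0.0052 on this scale. These comparisons share the model libraries, so the opposite signs are not independent. In high dose against control, Decr1 and Etfa lay lower (0.0543%) and none higher (2.65%). In FPKM, of Fabp3, Acot1, Acot2 and Mlycd only Fabp3 had every high-dose library above every model library. Mlycd stood at 19.4 and 19.7 FPKM in high-dose 2 and 3, below models 2 and 3 (21.3 and 22.5). The members' median, on the log2(FPKM + 1) scale, was 5.41 and 6.08 in high-dose 2 and 3 and 7.20 and 7.54 in models 2 and 3.

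This scaling moves every other gene against the members' median, so the percentages of all genes are no neutral background: it shifts every gene's log2 difference by 0.22, 0.65 and 0.88 in the 3 comparisons, and lines up the members by construction. limma on the same ratios called no member, and 4, 3 and 2 genes in the 3 comparisons. The smallest p of a member was 0.0172 before adjustment, for Fabp3 in model against control (adjusted p = 1.00). The scaling adds the spread of the members' median to other genes, and limma pools spread over genes. Acadl thus had an SE of 0.765 in model against control, though its ratio had an SD of 0.128 over the 9 libraries. The fit therefore could not decide whether members differ on this scale. The scaling was added after the data were seen.

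Other genes of the pathway were taken by name, from lists also chosen with results of these data known. No gene of any list was called in any comparison. A list of mitochondrial fatty acid oxidation and related steps, with fatty acid binding and transport, had 39 further genes tested. Of these, 17 were higher and 22 lower in model than in control (median -0.12). The counts were 18 higher and 21 lower in high dose than in model (median -0.07), and 15 and 24 in high dose than in control (median -0.12). Prkaa2, a catalytic subunit of the energy sensor AMPK, stood at 10.1, 3.95 and 4.32 FPKM in controls 1 to 3, 2.17, 2.13 and 2.58 in models 1 to 3 and 5.24, 4.91 and 2.94 in high-dose libraries 1 to 3, and its model libraries all lay below control (-1.01 ± 0.338, adjusted p = 0.713). Acot7, a thioesterase abundant in brain, stood at 35.0, 65.4 and 18.7 FPKM in controls 1 to 3, 13.9, 13.3 and 15.8 in models 1 to 3 and 140.0, 44.5 and 23.6 in high-dose libraries 1 to 3. The sympathetic marker Dbh, the enzyme that makes noradrenaline, also had its model libraries below both other groups, at 6.33, 131 and 41.1 FPKM in controls 1 to 3, 0.104, 0.0257 and 0.671 in models 1 to 3 and 839, 6.23 and 1.45 in high-dose libraries 1 to 3, and high-dose 1 was highest for both genes. The part of such cells in the values of Acot7 was not tested. The model libraries of Acot7 lay below both other groups, with -1.24 ± 0.629 against control (adjusted p = 0.764) and 1.82 ± 0.629 for high dose against model (adjusted p = 0.316).

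Fabp5, the fatty acid binding protein of macrophages and skin, stood at 113, 139.9 and 109 FPKM in controls 1 to 3, 737, 207 and 199.9 in models 1 to 3 and 191, 84.5 and 266 in high-dose libraries 1 to 3, with all model libraries above control (1.38 ± 0.573, adjusted p = 0.749). The macrophage markers, with their group ranges given above, were likewise higher in every model library than in control by their sum, and their part in this difference was not tested. Cd36, the fatty acid transporter of fat, muscle and macrophages, stood at 457, 380.3 and 869 FPKM in controls 1 to 3, 276, 485 and 546 in models 1 to 3 and 323, 80.9 and 254 in high-dose libraries 1 to 3, with high-dose libraries below control (-1.50 ± 0.569, adjusted p = 0.857). Acad12, an acyl-CoA dehydrogenase family member, likewise lay lower in high dose than in control (-1.47 ± 0.408, adjusted p = 0.805). Slc22a4, a carnitine-related transporter, lay higher in model than in control (0.52 ± 0.329) and in high dose than in control (1.17 ± 0.329), with adjusted p of 0.796 and 0.805. Acsl6, an acyl-CoA synthetase of brain, lay higher in high dose than in model (1.41 ± 0.502, adjusted p = 0.327), where the model libraries were all below 0.1 FPKM, and it too was highest in high-dose 1.

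Of 24 peroxisomal genes tested, 6 were higher and 18 lower in model than in control (median -0.16), 10 and 14 in high dose than in model (median -0.12), and 6 and 18 in high dose than in control (median -0.46). Nudt19, a peroxisomal CoA diphosphatase, stood at 26.1, 16.0 and 42.8 FPKM in controls 1 to 3, 7.93, 9.61 and 10.8 in models 1 to 3 and 17.5, 6.33 and 13.9 in high-dose libraries 1 to 3, with every model library below control (-1.39 ± 0.421, adjusted p = 0.688). Acox3, an acyl-CoA oxidase of branched chains, lay higher in every model library than in control, by 0.50 ± 0.220 (adjusted p = 0.761). Pex11a, which divides peroxisomes and is a PPAR alpha target, lay higher in high dose than in model (0.66 ± 0.449, adjusted p = 0.514).

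Other PPAR targets numbered 22 tested. Lower genes outnumbered higher ones in each comparison: 6 higher and 16 lower in model than in control (median -0.15), 6 and 16 in high dose than in model (median -0.26), and 3 and 19 in high dose than in control (median -0.37). Slc25a34, a mitochondrial carrier, stood at 21.6, 20.9 and 44.3 FPKM in controls 1 to 3, 7.15, 4.12 and 5.85 in models 1 to 3 and 10.6, 35.0 and 12.3 in high-dose libraries 1 to 3. Its model libraries lay below all others, with -2.10 ± 0.467 against control (adjusted p = 0.688) and 1.42 ± 0.467 for high dose against model (adjusted p = 0.296).

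Txnip, a glucose-responsive inhibitor of glucose uptake, stood at 666, 501 and 598 FPKM in controls 1 to 3, 254, 501 and 624 in models 1 to 3 and 288, 188 and 246 in high-dose libraries 1 to 3. Every high-dose library lay below every control library (-1.30 ± 0.377, adjusted p = 0.805). Plin4, a lipid droplet coat protein, did so too (-0.40 ± 0.313, adjusted p = 0.890).

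The receptor's partners and coregulators were balanced. Of 25 tested, 13 were higher and 12 lower in model than in control (median 0.0037), 12 and 13 in high dose than in model (median -0.05), and 10 and 15 in high dose than in control (median -0.10). Ncoa1, a steroid receptor coactivator, stood at 5.92, 6.14 and 6.41 FPKM in controls 1 to 3, 3.98, 5.42 and 5.31 in models 1 to 3 and 7.21, 8.77 and 7.11 in high-dose libraries 1 to 3. All its high-dose libraries lay above all others, with 0.56 ± 0.191 against model (adjusted p = 0.311) and 0.28 ± 0.191 against control (adjusted p = 0.888), and its model libraries lay below control (-0.29 ± 0.191, adjusted p = 0.811). Ep300, a histone acetyltransferase, stood at 6.69, 9.14 and 6.95 FPKM in controls 1 to 3, 10.6, 12.3 and 10.8 in models 1 to 3 and 7.88, 6.62 and 6.61 in high-dose libraries 1 to 3. Its model libraries lay above control (0.52 ± 0.191, adjusted p = 0.713) and above high dose (-0.61 ± 0.191, adjusted p = 0.285).

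Tfam, the packer of mitochondrial DNA, was lower in every model library than in control (-0.60 ± 0.297, adjusted p = 0.763), and Pprc1, a relative of PGC-1 alpha, higher (0.45 ± 0.302, adjusted p = 0.818). Esrra, an estrogen-related receptor of oxidative tissues, lay higher in high dose than in model (0.45 ± 0.345, adjusted p = 0.556). Med1, a Mediator subunit that binds nuclear receptors, lay lower in high dose than in model (-0.29 ± 0.181, adjusted p = 0.478) and in control (-0.28 ± 0.181, adjusted p = 0.888).

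The last list held 13 genes, those of pyruvate dehydrogenase, its kinases and phosphatases, with Mpc1, Mpc2 and Ucp2. Of these, 6 were higher and 7 lower in model than in control (median -0.05). The counts were 5 higher and 8 lower in high dose than in model (median -0.30), and 2 and 11 in high dose than in control (median -0.35). Pdp1, the phosphatase that opposes the kinases, lay higher in every high-dose library than in model (0.52 ± 0.314, adjusted p = 0.459). Without overlap, no other gene of this list separated the groups in any comparison.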

How the data were processed

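Messenger RNA of 9 aortic arch libraries was sequenced, with RNA from TRIzol extraction and an NEBNext Ultra kit per the labels' protocols. The authors deposited FPKM values for 21989 protein-coding genes, and no counts. Per the submitters' processing notes, builds GRCm38.p5 and mm10 were used. Which aligner and counter made the values, and whether strand was used, is not given in the sources used here. Because FPKM scales to a library's total, a few abundant genes can lower the rest.

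Columns were matched to samples by name (AS as model, HD as high dose, Contorl as control), and groups came from the sample titles. log2(FPKM + 1) of the 12895 genes with at least 1 FPKM in at least 3 libraries was fitted with limma 3.58.1 in R 4.3.3. All 9 libraries entered 1 fit, with a mean-variance trend, two-sided p-values and Benjamini-Hochberg adjustment at 0.05. Descriptions that name a rank or ratio of genes used 12891, without 4 rows whose names are dates. The same fit was run on simulated data with known changes, and recovery was required only at a spread below that of these libraries. The simulation therefore does not show what the fit could detect here. The 34 members and all lists were chosen with earlier results of these data known.

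Given with a fitted difference were members whose groups do not overlap and whose higher group averages at least 2 FPKM, and always Ppara, Ppargc1a, Cpt1a, Cpt1b and Pdk4. Angptl4 failed the filter. Of each pathway list, up to 2 genes in each direction were named, by smallest p among those without overlap and at 2 FPKM or more. A few genes that this rule names are not reported here. Of each marker list the most abundant gene was named, with Ucp1, Myh6, Acta1, Adipoq and Alb. Relative depth came from the spacing of FPKM values under 0.2. Gene positions and coding sequences came from GENCODE M21 (GRCm38), and promoters from RefSeq (GRCm38.p6). Alternatives were a pseudocount of 0.1, no filter, rescaling by median ratios, quantile normalization, fits of 2 groups only, a replicate block, library weights and leaving out each library. Chosen after the data were seen were cardiac or brown fat marker means as covariates, leaving out the 4 libraries above 100 FPKM of Myh6, and the ratio to the members' median.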

Additional observations from a re-analysis of the deposited data

How the results depend on the processing

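No member was called under any alternative that kept more than 1 library a group, except 2 of 33 in model against control with library weights. There 684 of 12895 genes were called. Without the libraries rich in heart muscle genes, control and high dose kept 1 library each, so counts of called genes are not given for that fit. Of the members lower without overlap in model against control, rescaling by median ratios left 1. Against the members' median, those higher without overlap numbered 6 in model against control and 6 in high dose against model, and those lower in the latter 8. The median difference of the members in model against control was -1.40 without the libraries rich in heart muscle genes, which left control 3 as the only control.

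Leaving out 1 library at a time, members lower without overlap numbered 3 to 9 in model against control, 2 to 23 in high dose against model and 3 to 15 in high dose against control, of 33 tested. Over all genes the shares lower ran from 11.2% to 24.9%, 12.02% to 19.8% and 7.30% to 13.4% in the same fits. Members higher numbered 0 to 2 in model against control and 1 to 3 in high dose against model, where 8.30% to 21.7% and 14.2% to 20.2% of all genes were higher. Over the same fits the difference of Pdk4 in model against control ran from -0.83 to 0.46, and in high dose against model that of Cpt1b from -0.63 to 0.31 and of Cpt1a from -0.20 to 0.38.

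Other signs turned as follows, and the cause was not tested. Library weights gave 0.063 for Pdk4 in model against control. The cardiac covariate gave -0.24 for Ppara in model against control and 0.45 for Cpt1b in high dose against model, where the brown fat covariate gave 0.035. Without the libraries rich in heart muscle genes, 1 control and 1 high-dose library were left. In that fit Ppara stood at -0.84 and Cpt1a at 0.34 in model against control. Cpt1b stood at 0.43 in high dose against model and Cpt1a at 1.10 in high dose against control. Against the members' median, Pdk4 stood at 0.053 in model against control, Cpt1b at 0.61 in high dose against model, and Ppargc1a at 0.31, Cpt1a at 0.52 and Cpt1b at 0.22 in high dose against control.

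The replicate block called 0 members in each comparison, as without it. Same-numbered libraries of different groups correlated at -0.52 to 0.31 in their deviations from group means, and control 1 came closest to high-dose 3 (0.38), so the numbers were not taken to pair the libraries. The library medians of the members varied by a pooled SD of 0.98 within groups on the log2 scale. With 3 libraries a group, only differences large against their spread could pass.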
